A study of Mus musculus with 12 samples.

Results

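Transcripts of 6 genes best known from the choroid plexus were followed in the mouse frontal cortex. They are Aqp1, Enpp2, Clic6, Kl, Ttr and Folr1, chosen by name from 23076 gene symbols in 3 deposited tables. The choroid plexus is the epithelium in the brain ventricles that makes cerebrospinal fluid. Its cells secrete the thyroid hormone carrier transthyretin (Ttr) and move water through the channel aquaporin-1 (Aqp1). They also take up folate through folate receptor alpha (Folr1) and release klotho (Kl) and autotaxin (Enpp2). Several of these genes have other sources in the brain: oligodendrocytes also express Enpp2, and neurons express Kl.

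The RNA came from 12 male F1 hybrids of C57Bl/6 and 129/SvlmJ aged 14 weeks, in 3 groups of 4. The labels give the genotypes by name only, as GluN1Cre, GluN1 and WT. From general knowledge of these lines, GluN1 mice are a Grin1 knockdown, GluN1Cre mice carry that knockdown with a Cre that can restore Grin1, and WT mice are the wild type. Grin1 encodes the obligatory subunit of the NMDA-type glutamate receptor. Tamoxifen was given to all 3 groups, WT included, starting at 10 weeks: a gavage of 6 mg, and then chow that supplied about 14 mg. The labels do not name the Cre driver, and by the group names no group carried Cre without the knockdown, so effects of Cre and of restored Grin1 cannot be told apart.

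Each table holds 1 FPKM (a fragment count scaled to transcript length and library size) per group and the authors' Cuffdiff p and q, with no value per animal. No spread between animals can be given and depth per library is unknown. A gene model was called changed at p under 0.05 and q under 0.10, the limits in the series' design text. Grin1 itself had 56.7 FPKM in GluN1 against 138 FPKM in WT, 86.7 FPKM in GluN1Cre against 65.7 FPKM in GluN1, and 78.0 FPKM in GluN1Cre against 138 FPKM in WT in the authors' deposited tables. These 3 differences were all called, with Grin1 lowest in GluN1. The level of Grin1 in 1 group differed between tables more than that of Aqp1, with 56.7 and 65.7 FPKM in GluN1 and 86.7 and 78.0 FPKM in GluN1Cre. Cortical excitatory neuron markers summed to between 1500 and 1670 FPKM over their 10 models in every group value. The highest were Camk2a and Slc17a7, at 730 and 598 FPKM in GluN1 in the comparison with WT. The label gives the tissue as frontal cortex, and the sum does not test that.

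Several genes that define the choroid plexus epithelium were close to 0 in the libraries. Of 11 such genes, 6 stayed below 0.3 FPKM in every group of every table. The share of all models below that level was not counted. Ttr, among the most abundant transcripts of that epithelium, had 0.125 and 0.126 FPKM in GluN1, 0.136 and 0.135 FPKM in GluN1Cre and 0.0807 and 0.0800 FPKM in WT, each pair being the same group in its 2 tables. The highest values over all groups were 0.118 FPKM for Folr1, 0.114 FPKM for the potassium channel subunit Kcne2, 0.0139 FPKM for the bicarbonate transporter Slc4a5, 0.0730 FPKM for the transcription factor Otx2 and 0.283 FPKM for the secreted inhibitor Sostdc1. The rest of the 11 lay higher. The potassium channel Kcnj13 lay at 1.02 to 1.28 FPKM, Clic6 at 0.238 to 0.496 FPKM and Kl at 0.658 to 0.744 FPKM. Aqp1 lay at 0.825 to 2.24 FPKM and Enpp2 at 53.6 to 55.2 FPKM. The amount of choroid plexus tissue in the libraries was not tested. The 6 genes are therefore described here by name and not as a measure of choroid plexus tissue. In bulk tissue, fewer cells of a type and less RNA per cell cannot be told apart.

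The one called gene among the 6 was Aqp1, the water channel. It rose in GluN1, fell in GluN1Cre relative to GluN1 and was also higher in GluN1Cre than in WT. Of the 6 genes, 4 were tested by Cuffdiff in each table and 2, Ttr and Folr1, were not. Aqp1 was the 1 of 4 called for GluN1 over WT, where 2.52% of all tested models were called, 1.66% as higher and 0.858% as lower. It was also the 1 of 4 called for GluN1Cre over GluN1, with 0.689% of all tested models called, 0.13% as higher and 0.559% as lower. For GluN1Cre over WT it was again the 1 of 4 called, with 0.841% of all tested models called, 0.364% as higher and 0.478% as lower. The 6 genes were chosen with earlier results of these data known. These counts are therefore not an independent comparison with the shares over all models. The median log2 fold of the 6 genes was -0.03, -0.12 and -0.08 in that order, beside -0.01, -0.00 and -0.01 over tested models with a mean of at least 1 FPKM.

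Aqp1 is a protein-coding gene on the plus strand of mouse chromosome 6 (ENSMUSG00000004655, chr6:55336432-55348555 in GENCODE M21, GRCm38). No other annotated gene overlaps the authors' model. The sequence just before its RefSeq start is shown because Aqp1 was the one called gene among the 6. It is the stretch of 250 bases upstream of the RefSeq start (GRCm38.p6, plus strand, chr6:55336049-55336298), and the capitals mark the one motif found in it. The GENCODE start at 55336432 lies downstream of this window, and the bases between were not searched.

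Aqp1 upstream: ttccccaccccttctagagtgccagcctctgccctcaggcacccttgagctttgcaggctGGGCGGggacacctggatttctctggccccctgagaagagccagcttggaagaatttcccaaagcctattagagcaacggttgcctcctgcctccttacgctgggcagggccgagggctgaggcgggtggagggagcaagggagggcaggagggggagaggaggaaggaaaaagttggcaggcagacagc

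Both strands were searched for 5 motifs. A GC box, GGGCGG, begins at base -190 from the RefSeq start on the plus strand. Of 32851 promoter windows of the same length, 32.7% hold one. The TATA box TATAAA, the CCAAT box CCAAT, the glucocorticoid receptor site AGAACA and the Otx2 site TAATCC gave no match in this window; they occur in 12.4%, 33.8%, 16.1% and 6.25% of the windows. A match describes letters and not a bound site.

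**Figure D1:**
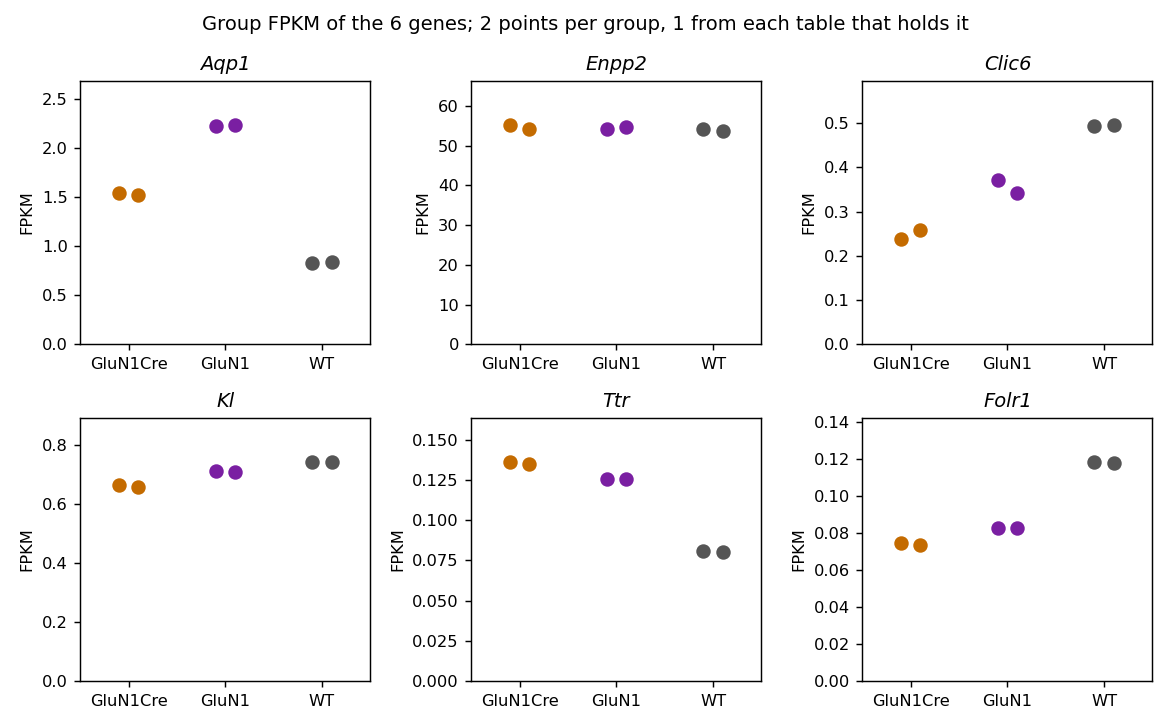
FPKM of the 6 genes in GluN1Cre, GluN1 and WT cortex, on linear axes that start at 0 and differ between panels. The 2 points of a group are its values in the 2 tables that hold it, not animals; Aqp1 is at most 2.24 FPKM in GluN1 and at least 0.825 FPKM in WT, while all 6 points of Enpp2 lie between 53.6 and 55.2 FPKM.

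Aqp1 had 2.22 FPKM in GluN1 against 0.825 FPKM in WT in the authors' deposited table of these groups, 2.70 times the WT level (log2 fold 1.43, Cuffdiff p = 5e-05, q = 0.00456). That p is the lowest value in the table and is shared by 202 tested models. GluN1Cre had 1.54 FPKM against 2.24 FPKM in GluN1, 0.690 times the GluN1 level (log2 fold -0.53, Cuffdiff p = 0.00035, q = 0.0586 in the authors' deposited table). The call passes the limit of 0.10 of the design text, while the authors' deposited table itself marks the difference as not significant. GluN1Cre had 1.52 FPKM against 0.839 FPKM in WT, 1.81 times the WT level (log2 fold 0.85, Cuffdiff p = 5e-05, q = 0.00980 in the authors' deposited table).

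The order of the groups was therefore GluN1, GluN1Cre, WT from high to low, and each neighbouring pair passed the test at that limit. The 3 comparisons share groups and are not independent of one another. The folds of GluN1 over WT and GluN1Cre over GluN1 add to 0.90 on the log2 scale, against 0.85 in the table that compares GluN1Cre with WT directly. The same group differed between its 2 tables by at most 1.76% for Aqp1. By size of fold Aqp1 ranked 27 of 306 called rises in GluN1 over WT, 53 of 103 called falls in GluN1Cre over GluN1 and 22 of 67 called rises in GluN1Cre over WT.

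**Figure D2:**
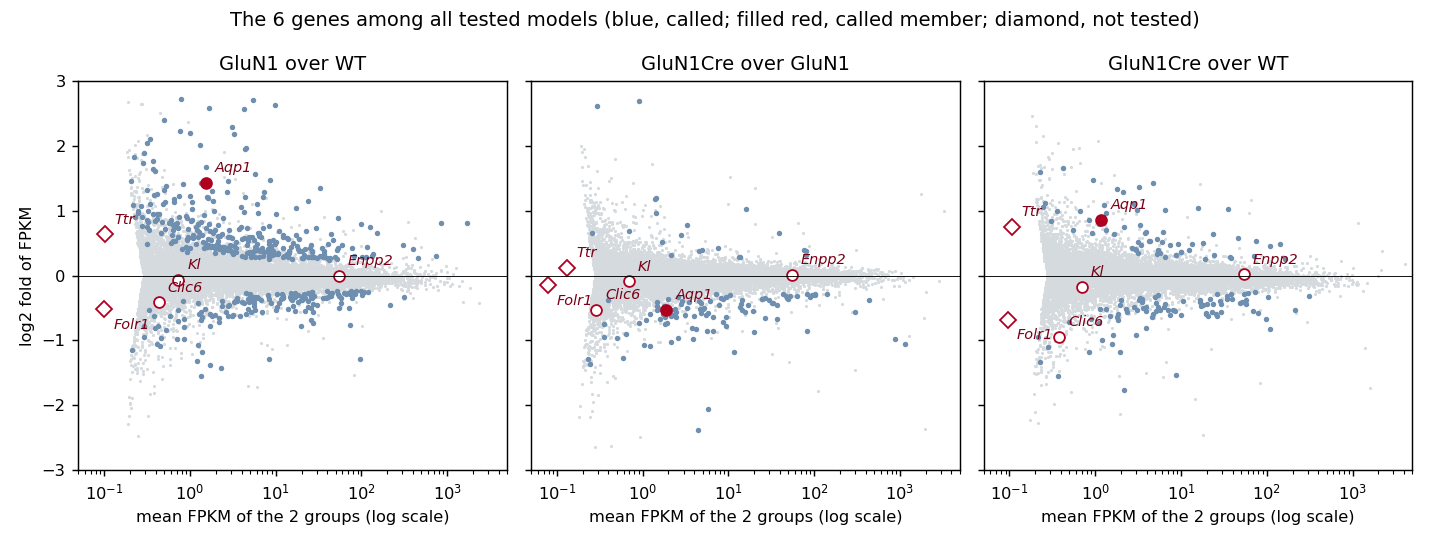
Log2 fold of FPKM against the mean FPKM of the groups compared (log axis) for each comparison, with tested models in grey, called models in blue and the 6 genes outlined in red. Aqp1 is the one filled red circle in each panel, at 1.43, -0.53 and 0.85; Ttr and Folr1 (diamonds) lie to the left of the tested models. Not drawn are 12, 7 and 8 tested models with a log2 fold beyond 3 in either direction.

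Enpp2, on the minus strand of chromosome 15 (chr15:54838901-54952892), encodes autotaxin, the secreted enzyme that makes lysophosphatidic acid. It was by far the highest of the 6, above 92.6% of tested models for GluN1 over WT. Enpp2 had 54.3 FPKM in GluN1 against 54.3 FPKM in WT (log2 fold 0.00, not called by Cuffdiff, p = 0.991 in the authors' deposited table). The values were 55.2 FPKM in GluN1Cre against 54.7 FPKM in GluN1 (log2 fold 0.02), and 54.2 FPKM in GluN1Cre against 53.6 FPKM in WT (log2 fold 0.02). Neither was called in the authors' deposited tables. Among models within 1.2-fold of the Enpp2 level, 15 of 612, 5 of 606 and 7 of 594 tested models were called in the 3 tables. The smallest called log2 fold among them had a size of 0.24, 0.31 and 0.27, so smaller differences at this level were not called. Oligodendrocyte markers lay beside it: 0 of 13 rose, 1 fell and 12 were not called for GluN1 over WT (median log2 fold -0.06). Of all models of at least 1 FPKM, 1.7% rose and 0.97% fell in that comparison. None of 13 and 14 models was called by Cuffdiff in the comparisons of GluN1Cre with GluN1 and with WT, with 1 at an unadjusted p under 0.05 in each (medians -0.03 and -0.08). There 0.806% and 0.969% of all models of at least 1 FPKM were called.

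Clic6, on chromosome 16 (chr16:92485736-92541243), belongs to the chloride intracellular channel family. The authors' model merges Clic6 with the overlapping gene 2410124H12Rik in both tables that hold WT, and stands alone in the third. Clic6 had 0.371 FPKM in GluN1 against 0.494 FPKM in WT (log2 fold -0.41, Cuffdiff q = 0.831 in the authors' deposited table). It had 0.238 FPKM in GluN1Cre against 0.342 FPKM in GluN1 (log2 fold -0.52, p = 0.0277, q = 0.927 in the authors' deposited table by Cuffdiff). In the comparison with WT, Clic6 had 0.258 FPKM in GluN1Cre and 0.496 FPKM in WT (log2 fold -0.94, p = 0.00115, q = 0.126 in the authors' deposited table by Cuffdiff). GluN1Cre was the lowest group and WT the highest, but none of the 3 differences was called. The same group differed by up to 8.50% between tables, where the merged model met the single one. Within 1.2-fold of the Clic6 level in the last table, 3 of 1300 tested models were called, and the smallest of their log2 folds had a size of 0.995.

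Kl, on chromosome 5 (chr5:150952607-150993817), encodes klotho, the co-receptor for the hormone FGF23. The authors' model of Kl begins well upstream of the annotated gene, at 150875522 in both tables that hold GluN1, where it overlaps the noncoding gene Gm43298 on the other strand. Kl had 0.712 FPKM in GluN1 against 0.744 FPKM in WT (log2 fold -0.06), and 0.666 FPKM in GluN1Cre against 0.709 FPKM in GluN1 (log2 fold -0.09). It had 0.658 FPKM in GluN1Cre against 0.742 FPKM in WT (log2 fold -0.17). Cuffdiff called none of these 3 differences, with p = 0.695, 0.573 and 0.320 in the authors' deposited tables. Within 1.2-fold of the Kl level, 28 of 997, 3 of 1039 and 1 of 1042 tested models were called, and the smallest of their log2 folds had a size of 0.40, 0.69 and 0.99.

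Ttr and Folr1 were too low for Cuffdiff to test. None of the 818, 1591 and 1027 models within 1.2-fold of the Ttr level was tested in the 3 tables. Folr1, on chromosome 7 (chr7:101858331-101870788, minus strand), overlaps Anapc15 on the other strand. Folr1 had 0.0826 FPKM in GluN1 against 0.118 FPKM in WT, and 0.0744 FPKM in GluN1Cre against 0.0826 FPKM in GluN1. The third table had 0.0735 FPKM in GluN1Cre against 0.118 FPKM in WT for Folr1. The log2 folds were -0.52, -0.15 and -0.68 for Folr1 and 0.64, 0.12 and 0.75 for Ttr, in the order GluN1 over WT, GluN1Cre over GluN1, GluN1Cre over WT. In the comparisons with WT the folds of Ttr were positive and those of Folr1 negative, at levels where Cuffdiff tested no model.

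Besides Aqp1, the called members of the choroid plexus gene lists were Slc29a4, Ace and Trp73, none of them in all 3 comparisons. The list of secreted and transport proteins, which includes the 6 genes, had 19 tested models with a mean of at least 1 FPKM for GluN1 over WT: 2 rose, 0 fell and 17 were not called, where 2.67% of all such models were called, 1.7% as higher and 0.97% as lower. Over tested models at any level the calls were 2 of 28, 1 of 29 and 2 of 26 in the 3 comparisons. Besides Aqp1 the riser was Slc29a4, a monoamine transporter, with 3.73 FPKM in GluN1 against 2.73 FPKM in WT (log2 fold 0.45, Cuffdiff q = 0.0246 in the authors' deposited table). The list's median log2 fold was 0.14, with 17 of 19 folds positive, beside 6517 of 13920 over all such models. These are models and not separate genes: Igf2 counts more than once, and Abca4 and Mfrp are merged with Arhgap29 and C1qtnf5. For GluN1Cre over GluN1, Aqp1 was the 1 of 19 that fell (0.806% of all such models were called, 0.137% as higher and 0.669% as lower), at a median of -0.03, with 7 of 19 folds positive beside 6598 of 13893 over all such models. For GluN1Cre over WT, 2 of 18 rose (0.969% of all such models were called, 0.398% as higher and 0.571% as lower), at a median of 0.08, with 13 of 18 folds positive beside 6110 of 13835 over all such models. They were Aqp1 and Ace, the angiotensin-converting enzyme, with 3.08 FPKM in GluN1Cre against 2.28 FPKM in WT (log2 fold 0.43, Cuffdiff q = 0.00980 in the authors' deposited table).

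Transcription factors of the epithelium were low. Otx2 stayed below the tested range, and Lmx1a was listed at 0 in GluN1 and GluN1Cre. The 2 with a mean of at least 1 FPKM, Foxj1 and Msx1, were not called by Cuffdiff in any table, with 1, 0 and 0 at an unadjusted p under 0.05. Foxj1, a regulator of motile cilia, had 1.19 FPKM in GluN1 against 0.873 FPKM in WT (Cuffdiff q = 0.372 in the authors' deposited table). Below that level, Trp73, a relative of the tumour suppressor p53, rose with 0.438 FPKM in GluN1 against 0.218 FPKM in WT (Cuffdiff q = 0.0117 in the authors' deposited table). Trp73 then fell, with 0.268 FPKM in GluN1Cre against 0.450 FPKM in GluN1 (log2 fold -0.75, Cuffdiff q = 0.038 in the authors' deposited table). In the third table Trp73 was not tested, at 0.251 FPKM in GluN1Cre and 0.209 FPKM in WT. Another model of Trp73, also not tested, had 0.0311 FPKM in GluN1 against 0.0496 FPKM in WT. It had 0 FPKM in GluN1Cre against 0.0529 FPKM in WT.

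**Figure D3:**
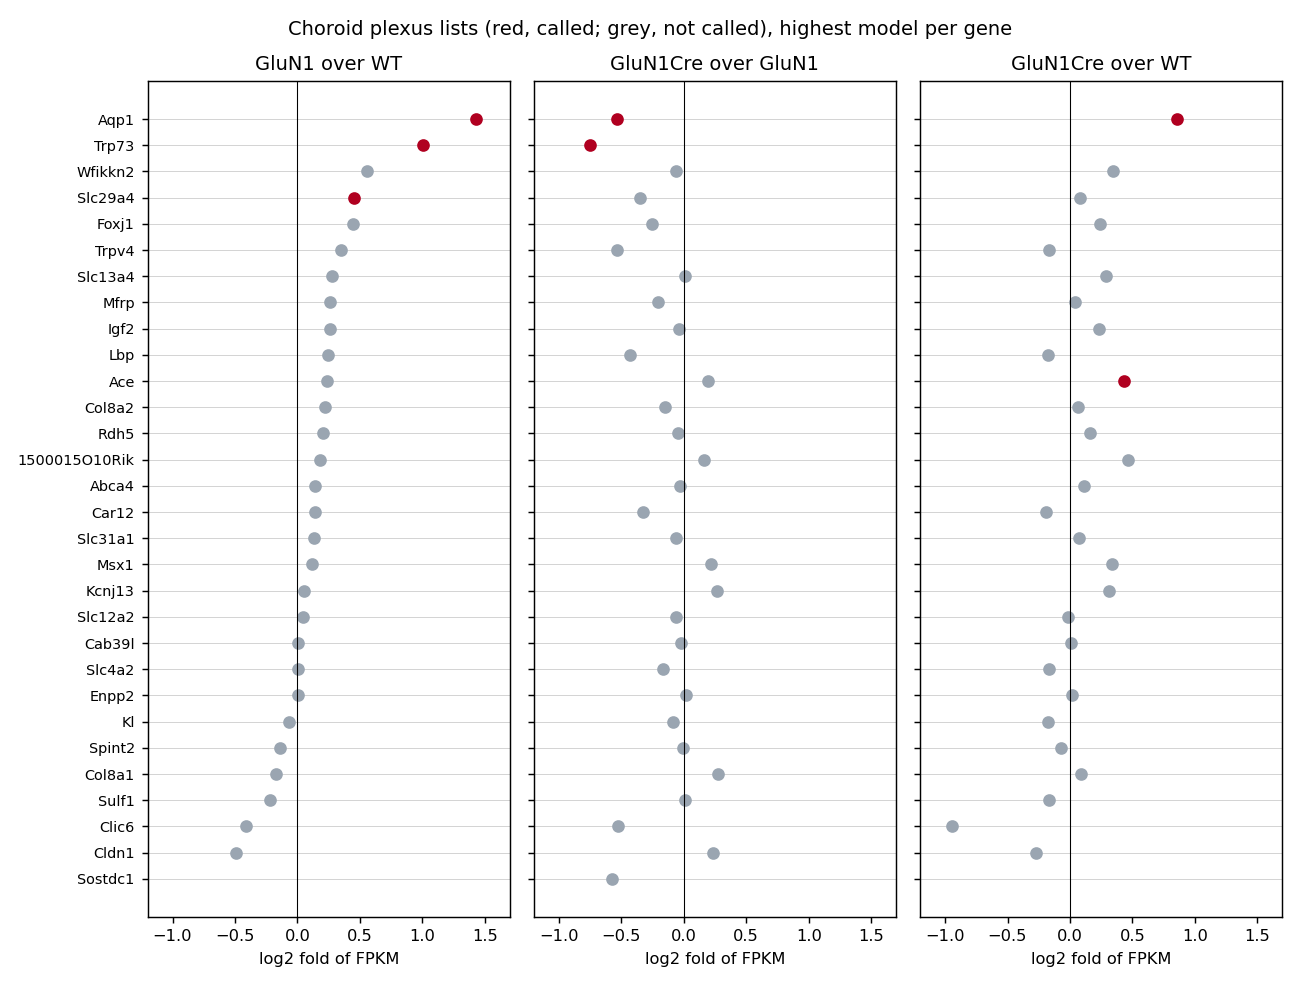
Log2 fold of FPKM for every tested gene of the choroid plexus lists in the 3 comparisons, with the highest model shown for each gene, called genes in red and others in grey. Aqp1 is called in all 3 panels, Trp73 in the first 2, and Slc29a4 and Ace in 1 each.

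Ependymal cells, which line the ventricles beside the choroid plexus, had markers at widely different levels. For GluN1 over WT, 5 of the 15 models were too low to test, and 7 had a mean of at least 1 FPKM. Ccdc153 and Tmem212, the lowest, did not exceed 0.0131 and 0.0175 FPKM in any table, while the cilia gene Tekt1 had 1.44 FPKM in GluN1Cre against 1.53 FPKM in GluN1 and Rarres2 had 2.03 FPKM in GluN1 against 2.14 FPKM in WT. None of the 7 ependymal models with a mean of at least 1 FPKM was called by Cuffdiff in any table, with 1, 0 and 0 at an unadjusted p under 0.05 (medians 0.06, -0.08 and -0.10). The highest were Pltp, a phospholipid transfer protein, with 27.4 FPKM in GluN1 against 24.8 FPKM in WT, and the merged model 1110017D15Rik,1700066J24Rik with 3.84 FPKM in GluN1 against 4.68 FPKM in WT. That merged model had 42.3 FPKM in GluN1Cre against 40.6 FPKM in GluN1 in the table without WT, so its level cannot be set across tables.

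Of the aquaporins, Aqp1 was not the main one by level. Of 12 family models, 8 were not tested in any table. Aqp4, the water channel of astrocyte endfeet, had 28.8 FPKM in GluN1 against 23.5 FPKM in WT and rose (log2 fold 0.29, Cuffdiff q = 0.0172 in the authors' deposited table). Aqp4 had 25.9 FPKM in GluN1Cre against 28.9 FPKM in GluN1, and 25.5 FPKM in GluN1Cre against 23.1 FPKM in WT, and neither was called by Cuffdiff (p = 0.0465 and 0.0736 in the authors' deposited tables). Of the 4 aquaporins tested, 2 therefore rose in GluN1 over WT, where 1.66% of all tested models rose. For GluN1Cre over GluN1 1 of 4 fell, where 0.559% of all tested models fell. For GluN1Cre over WT 1 of 4 rose, where 0.364% of all tested models rose. It was Aqp1 in both. Aqp9, a channel for glycerol and water, had 0.634 FPKM in GluN1 against 0.434 FPKM in WT (log2 fold 0.55) and was not called (Cuffdiff p = 0.0148, q = 0.324 in the authors' deposited table). The fourth, the intracellular Aqp11, had log2 folds of -0.08, 0.12 and 0.03.

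Pathway lists around the other genes held few models each, so 0 or 1 call says little beside the share over all models of at least 1 FPKM. That share was 2.67%, 0.806% and 0.969% in the 3 comparisons. In the lysophosphatidic acid list, 0 of 7, 6 and 6 models were called by Cuffdiff, with 0 at an unadjusted p under 0.05 in each comparison. Its highest member, the phosphatase Ppap2b, had 73.9 FPKM in GluN1 against 72.8 FPKM in WT, followed by Enpp2 itself, and the receptor Lpar1 had 5.78 FPKM in GluN1 against 5.71 FPKM in WT. The ENPP family had 0 of 5 called by Cuffdiff in each table, with 0 at an unadjusted p under 0.05. Its highest member Enpp5 had 85.7 FPKM in GluN1 against 86.2 FPKM in WT.

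Folate genes had 1 of 13 called for GluN1 over WT, where 2.67% of all such models were called, 0.97% as lower. Mthfd1l, a mitochondrial folate enzyme, fell, with 3.13 FPKM in GluN1 against 3.97 FPKM in WT (log2 fold -0.34, Cuffdiff q = 0.0975 in the authors' deposited table). None of 13 was called by Cuffdiff for GluN1Cre over GluN1 or over WT, with 1 at an unadjusted p under 0.05 in each. That one was in both cases Aldh1l1, the astrocyte folate dehydrogenase, with 16.3 FPKM in GluN1Cre against 19.3 FPKM in GluN1, and 16.4 FPKM in GluN1Cre against 18.5 FPKM in WT. The folate carriers other than Folr1, Slc19a1 and Slc46a1, had 5.57 and 4.75 FPKM in GluN1 against 5.50 and 4.34 FPKM in WT.

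In the klotho and FGF list 2 of 3 models of at least 1 FPKM, and 2 of 7 tested at any level, rose for GluN1 over WT, where 1.7% of all models of at least 1 FPKM rose. They were the FGF receptors Fgfr1, with 15.1 FPKM in GluN1 against 12.1 FPKM in WT (log2 fold 0.33, Cuffdiff q = 0.0197 in the authors' deposited table), and Fgfr2, with 9.18 FPKM in GluN1 against 7.50 FPKM in WT (log2 fold 0.29, Cuffdiff q = 0.0663 in the authors' deposited table). None of 4 was called by Cuffdiff in the other comparisons, with 2 and 1 at an unadjusted p under 0.05. Fgf23, the hormone ligand of klotho, had 0.424 FPKM in GluN1 against 0.383 FPKM in WT. Of the chloride intracellular channels, 1 of 3 models of at least 1 FPKM, and 1 of 5 tested at any level, rose for GluN1 over WT: Clic4, with 22.1 FPKM in GluN1 against 18.3 FPKM in WT (log2 fold 0.27, Cuffdiff q = 0.0411 in the authors' deposited table). None of 4 was called by Cuffdiff in the other comparisons, with 2 and 0 at an unadjusted p under 0.05.

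For genes of thyroid hormone and retinol handling, the cargo of transthyretin, 1 of 12 rose, 1 fell and 10 were not called for GluN1 over WT, where 1.7% of all such models rose and 0.97% fell. Dio2, the enzyme that activates thyroid hormone in astrocytes, had 30.1 FPKM in GluN1 against 21.8 FPKM in WT (log2 fold 0.46, Cuffdiff q = 0.00456 in the authors' deposited table). Crym, which binds thyroid hormone in the cytosol, had 45.9 FPKM in GluN1 against 64.7 FPKM in WT (log2 fold -0.50, Cuffdiff q = 0.00456 in the authors' deposited table). Dio2 was the 1 of 12 called for GluN1Cre over GluN1, where it fell (log2 fold -0.35, Cuffdiff q = 0.0118 in the authors' deposited table). Of all such models 0.669% fell in that comparison. For GluN1Cre over WT, 0 of 12 rose and 2 fell, where 0.398% of all such models rose and 0.571% fell. They were Crym (log2 fold -0.38) and the hormone-responsive transcription factor Klf9 (log2 fold -0.27), with q = 0.0182 and 0.0951 in the authors' deposited table by Cuffdiff.

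Markers of other tissue moved in the same libraries as Aqp1. The marker counts that follow are of models of at least 1 FPKM. The lists were chosen with earlier results of these data known. Their counts are therefore a description and not an independent comparison with all models. Of all such models 1.7% rose and 0.97% fell for GluN1 over WT, 0.137% rose and 0.669% fell for GluN1Cre over GluN1, and 0.398% rose and 0.571% fell for GluN1Cre over WT. Olfactory bulb markers, among them Tbx21, Eomes and Th, rose in 9 of 10 models for GluN1 over WT with a median log2 fold of 1.52. They fell in 8 of 10 for GluN1Cre over GluN1 (median -0.80) and rose in 7 of 9 for GluN1Cre over WT (median 0.66). The bulb markers summed to 169.8 FPKM in GluN1 against 68.7 FPKM in WT, 105 FPKM in GluN1Cre against 167 FPKM in GluN1, and 105 FPKM in GluN1Cre against 68.4 FPKM in WT, and none was at 0. Markers of olfactory ensheathing glia, some of which other glia share, rose in 4 of 7 models for GluN1 over WT (median 0.48). They fell in 2 of 8 for GluN1Cre over GluN1 (median -0.13) and rose in 2 of 7 for GluN1Cre over WT (median 0.10). The part of bulb tissue in the Aqp1 change was not tested.

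Meningeal fibroblast markers rose in 5 of 15 models for GluN1 over WT (median 0.36), beside 1.7% of all such models. None of 14 was called by Cuffdiff for GluN1Cre over GluN1 or over WT, with 4 and 3 at an unadjusted p under 0.05 (medians -0.14 and 0.15). Their sums were 116 FPKM in GluN1 against 92.2 FPKM in WT, and 103 FPKM in GluN1Cre against 92.5 FPKM in WT. In the third table the sums were 87.9 FPKM in GluN1Cre against 100.1 FPKM in GluN1. These last sums cover other models: Ranbp3l stood alone there, at 2.51 FPKM in GluN1Cre and 2.69 FPKM in GluN1. In both tables with WT it was merged with Nadkd1, at 16.8 FPKM in GluN1Cre in one and 18.5 FPKM in GluN1 in the other. Ogn stood alone for GluN1 over WT and was merged with Omd in the other comparisons. The sums therefore cannot be set across tables. Astrocyte markers rose in 2 of 10 models for GluN1 over WT (median 0.15), fell in 2 of 11 for GluN1Cre over GluN1 (median -0.19) and rose in 1 of 11 for GluN1Cre over WT (median -0.06). Endothelial markers had 0 of 10 calls by Cuffdiff for GluN1 over WT, with 4 at an unadjusted p under 0.05 (median 0.18), 1 fall in 10 for GluN1Cre over GluN1 and 0 of 10 for GluN1Cre over WT, with 2 at an unadjusted p under 0.05. The part of these cell types in the Aqp1 change was not tested either.

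Cortical, striatal, erythroid and hormone-responsive lists also held calls, and their part in the Aqp1 change was not tested. Cortical excitatory neuron markers summed to 1500 FPKM in GluN1 against 1664 FPKM in WT, with 9 of 10 folds negative (median -0.13) and 1 call, the lower Fezf2. They summed to 1581 FPKM in GluN1Cre against 1510 FPKM in GluN1, with 10 of 10 folds positive (median 0.09), and to 1567 FPKM in GluN1Cre against 1670 FPKM in WT, with 8 of 10 negative (median -0.04). Cuffdiff called 0 of 10 in either of these, with 1 and 0 at an unadjusted p under 0.05. Striatal markers fell in 5 of 9 models for GluN1 over WT, 1 of 9 for GluN1Cre over GluN1 and 7 of 9 for GluN1Cre over WT. Erythroid transcripts, whose cells carry Aqp1 in their membrane, rose in 1 of 5, 3 of 5 and 3 of 5 models (medians 0.19, 0.38 and 0.57). Glucocorticoid-responsive genes rose in 3 of 10 and fell in 1 for GluN1 over WT (median 0.26), fell in 7 of 10 for GluN1Cre over GluN1 (median -0.45) and fell in 1 of 10 for GluN1Cre over WT (median -0.23).

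**Figure D4:**
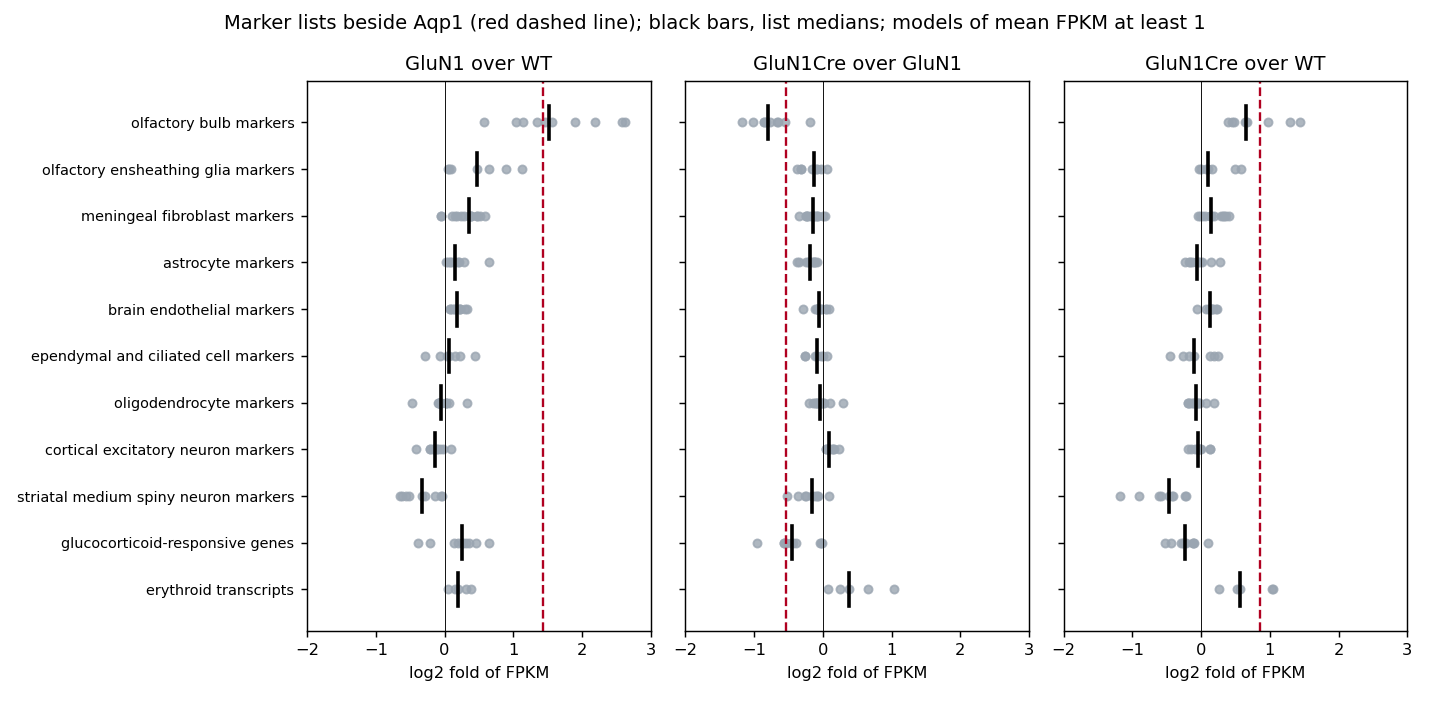
Log2 fold of FPKM of each marker (grey points, models with a mean of at least 1 FPKM) by list in the 3 comparisons, with list medians as black bars and the fold of Aqp1 as a red dashed line. The olfactory bulb list has medians of 1.52, -0.80 and 0.66, beside 1.43, -0.53 and 0.85 for Aqp1.

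The genes whose 3 folds lay nearest to those of Aqp1 were sought among 11289 single-symbol models tested in all tables with a mean of at least 1 FPKM in each. Likeness was the Euclidean distance between the log2 folds of the 3 comparisons, which rest on 3 groups. The nearest was Npr1, a natriuretic peptide receptor, at a distance of 0.04 (log2 folds 1.39, -0.54 and 0.85). Frmd7 followed at 0.10 (1.49, -0.62 and 0.88), then the R-spondin receptor Lgr6 at 0.17 (1.29, -0.51 and 0.75). The small GTPase Rab37 lay at 0.21 (1.31, -0.62 and 0.70) and the histone gene Hist1h4k at 0.24 (1.22, -0.55 and 0.75). Of these, Lgr6 and Rab37 were called in all 3 comparisons. Npr1 and Frmd7 were called only for GluN1Cre over GluN1, and Hist1h4k in none. For Ttr, whose own folds were not tested, the nearest were Olfml2b at 0.14, Xlr3b at 0.17, 1810044D09Rik at 0.19, 2010110P09Rik at 0.20 and Cyp26b1, a retinoic acid hydroxylase, at 0.26. Ttr itself lay far below the 1 FPKM required of the compared models. Its log2 fold for GluN1 over WT went from 0.64 to 0.06 with a pseudocount of 1 FPKM, so these distances rest on unstable folds.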

How the data were processed

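Polyadenylated RNA of frontal cortex was sequenced in 4 GluN1Cre, 4 GluN1 and 4 WT mice. The authors processed reads on Galaxy, per the labels' design text, and the submitters' processing notes name Cuffdiff 2.2.1.3, mm10 and GRCm38, with TopHat2 2.1.0 and also Cufflinks 2.2.1.0. Per the file headers, the authors' 3 Cuffdiff tables give 1 FPKM per group, a log2 fold, a p-value and a q-value for each model. The tables call the groups NR1Cre, NR1 and WT, and the sample descriptions tie each table to its groups. FPKM of a group differ between tables, so every comparison was read from a single one.

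With Python 3.11.15 and pandas 2.3.3, log2 folds were recomputed from the deposited FPKM, without a pseudocount, because some fold cells of 1 table were damaged. The Benjamini-Hochberg adjustment was repeated over tested models and lay within 5.14e-07 of every deposited q-value; this step was tested on simulated data. The 6 genes, the 21 gene lists and the naming rule were chosen with earlier results of these data known. Named were the 6 genes, Grin1, called members of the pathway lists (the highest members where none was called) and the 5 models nearest to Aqp1 and to Ttr; other genes were chosen after their values were seen. List counts use tested models with a mean of at least 1 FPKM, each model counting once, and overlap between lists was allowed. Replicate libraries cannot be compared here. Upstream sequence is from RefSeq (GRCm38.p6), which held 2 of the 6 genes, and annotation from GENCODE M21.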

Additional observations from a re-analysis of the deposited data

How the results depend on the processing

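The call of Aqp1 for GluN1Cre over GluN1 depends on the limit: at q under 0.05 the number of called genes among the 6 was 0. With p under 0.05 and no limit on q it was 2 for GluN1Cre over GluN1 and 2 for GluN1Cre over WT, Clic6 being the addition. With q recomputed over models of at least 1 FPKM the q of Aqp1 was 0.00398, 0.0501 and 0.00844 in the 3 comparisons, and with single-symbol models it was 0.00397, 0.0525 and 0.00906. Under the pseudocounts of 0.1 and 1 FPKM, both centrings and folds taken from the other 2 tables, the log2 fold of Aqp1 ranged from 0.82 to 1.56, from -0.62 to -0.35 and from 0.45 to 0.90, the ends nearest 0 coming from the pseudocount of 1 FPKM. The median of the 6 folds for GluN1 over WT was 0.10 relative to cortical excitatory markers, compared with -0.03 as reported, the marker median itself being -0.13. Without the FPKM filter the choroid plexus lists had 2 calls for GluN1Cre over GluN1, the addition being Trp73. Some list calls also depend on the limit of 0.10, with q above 0.05. Among them were Mthfd1l and Fgfr2 for GluN1 over WT and Klf9 for GluN1Cre over WT. Of 75 alternative values for the other 5 genes, 21 moved by more than 0.1 on the log2 scale. No paired analysis was possible because the tables hold 1 value per group, and leaving out single animals was not run for the same reason. Levels near 0.1 FPKM lay below the range Cuffdiff tested.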

Other observations

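Among genes around Aqp1 on chromosome 6, calls were near the share over all tested models, which was 2.52% for GluN1 over WT, 0.689% for GluN1Cre over GluN1 and 0.841% for GluN1Cre over WT. Within 1 Mb of Aqp1, 1 of 28 tested models was called for GluN1 over WT, the phosphodiesterase gene Pde1c, at a median log2 fold of 0.00. For GluN1Cre over GluN1 and over WT, 0 of 27 and 0 of 24 were called by Cuffdiff, with 3 and 1 at an unadjusted p under 0.05, at medians of -0.02 and -0.05.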
